A study of Mus musculus with 61 samples.

Results

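Gene expression in the embryonic mouse hindbrain was compared between a later window, the embryonic days E13.5 and E14.5 (4 libraries), and an earlier window, E10.5 and E11.5 (4 libraries). The 8 libraries were chosen by the tissue and stage in their column headers, out of 61 libraries of forebrain, midbrain, hindbrain and liver. Each stage had 2 libraries labelled as replicates. The labels do not say that these came from separate embryos or litters, so each p-value measures only a spread between replicate libraries, which may be technical. That spread was estimated over 57 libraries of all tissues and stages, not over the 8 alone. Strain, sex, pooling and the borders of the dissection are not stated in the labels. Xist, transcribed from the inactive X chromosome of females, had 115 to 231 TPM in the later window and 102 to 292 in the earlier, and the Y-linked Ddx3y had 9.16 to 14.1 TPM in the later window and 6.49 to 15.7 in the earlier, so each of the 8 libraries held RNA of both sexes. No embryo was treated or carried a mutation as far as the labels say, so the 2 windows are told apart by stage.

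The hindbrain forms the medulla, the pons and the cerebellum. In the earlier window most of its wall is a dividing neuroepithelium, in which Notch signalling keeps cells as progenitors and proneural transcription factors release some of them as neurons. Hox genes, signals from the isthmus at the border with the midbrain and signals from the dorsal and ventral midline give these cells their position. Neurons then extend axons, choose a transmitter and build synapses, while the remaining progenitors turn towards glia.

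Values are transcript levels in TPM, a share of each library's RNA corrected for gene length, so the depth of the libraries is unknown. Between 14231 and 15521 genes reached 1 TPM in each of the 8 libraries, and the Pearson r of log2(TPM + 1) within a replicate pair was at least 0.991. Hoxa2, expressed in the hindbrain and not in the forebrain, had 37.0 to 48.5 TPM in the later window and 38.5 to 55.2 in the earlier. The E10.5 libraries (forebrain, midbrain and hindbrain) and the E13.5 libraries (these tissues and liver) also shared a feature that does not follow age: the ribosomal protein pseudogene Rpl30-ps9 had 839.8 to 921 TPM in the 5 E10.5 libraries and 168 to 401 TPM in the 8 E13.5 libraries, against 0 to 13.1 TPM in the 8 E11.5 and 0 to 47.5 TPM in the 8 E14.5 libraries. Another gene, Gm14760, had 39.2 to 56.3 TPM in the E10.5 and 1.53 to 12.3 TPM in the E13.5 libraries. It had 0.62 to 2.62 TPM at E11.5 and 0.22 to 1.22 at E14.5, so by it E10.5 also stood apart from E13.5. The labels name no batch. E14.5 and E11.5 were both low in these genes, and values of their contrast alone are given beside some of the genes and lists. Lists given without them may also change.

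Of 14194 protein-coding genes tested with limma, 2230 rose (15.7%) and 1100 fell (7.75%) in the later window with an adjusted p below 0.05 and a log2 fold change of 1 or more in size. Together that is 23.5% of the genes, and the median log2 fold change of all 14194 genes was 0.09. The libraries of the 2 windows did not overlap for 3283 of the 3330 called genes and for 8640 genes in all (60.9%). Lack of overlap in a called gene named below therefore adds little to its call. With quantile normalization the split was 1862 higher and 1453 lower, so the share of higher calls was 56.2% in place of 67.0%. At E14.5 against E11.5 alone, 1776 genes were higher and 1027 lower. In whole tissue, fewer cells of a type and less RNA per cell cannot be told apart. A value in parentheses after a gene or its levels is its log2 fold change, later window over earlier, and one in parentheses after the count of a list is the median over its tested members.

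The 10 genes with the highest fold changes, among those with a mean of at least 5 TPM, were mostly neuronal or glial. Neurod6, a transcription factor of differentiating neurons, had 72.8 and 79.2 TPM at E13.5 and 49.5 and 51.4 at E14.5, against 0.37 and 0.09 at E10.5 and 0.76 and 0.91 at E11.5 (log2 fold change 5.39 ± 0.14 SE, adjusted p = 3.09e-25). Aldoc, the aldolase of astrocytes and of Purkinje cell stripes, had 146 and 186 TPM at E13.5 and 154 and 184 at E14.5, against 4.08 and 4.90 at E10.5 and 4.77 and 4.54 at E11.5 (log2 fold change 4.91 ± 0.10 SE, adjusted p = 5.53e-28). Neurod6 was below 1 TPM in every earlier library. Camk2b, a calcium/calmodulin-dependent kinase subunit of neurons, and Grm5, a metabotropic glutamate receptor, rose by 4.25 and 4.27 on the log2 scale. The list also held Npy (4.91), a neuropeptide, Chd5 (4.58), a chromatin remodeller of neurons, Rit2 (4.50), a neuronal small GTPase, Tmem130 (4.49), Ptgds (5.23), a prostaglandin synthase of the meninges, and the adult globin Hbb-bs (4.70).

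The 10 genes with the lowest fold changes were taken in the same way. They held 4 genes of red blood cells, Hbb-bh1, Hba-x, Hemgn and Slc4a1, and 2 genes of early developmental timing. Hmga2, a chromatin protein of early progenitors, had 14.1 and 9.25 TPM at E13.5 and 7.74 and 7.85 at E14.5, against 177 and 199.98 at E10.5 and 115 and 127 at E11.5 (log2 fold change -3.86 ± 0.11 SE, adjusted p = 2.61e-24). Lin28a, which blocks the maturation of let-7 microRNAs, had 0.54 and 0.34 TPM at E13.5 and 0.46 and 0.51 at E14.5, against 24.2 and 33.6 at E10.5 and 9.38 and 9.80 at E11.5 (log2 fold change -3.60 ± 0.08 SE, adjusted p = 4.52e-27). For both genes the E10.5 libraries were the highest and the E11.5 libraries came next. All later libraries lay below, which the choice of these genes required. Cldn6, an epithelial claudin, had a log2 fold change of -3.51 and Cyp26a1, a retinoic acid hydroxylase, one of -3.36. Fndc3c1 (-4.50) and Fignl2 (-3.39) completed the list.

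**Figure D1:**
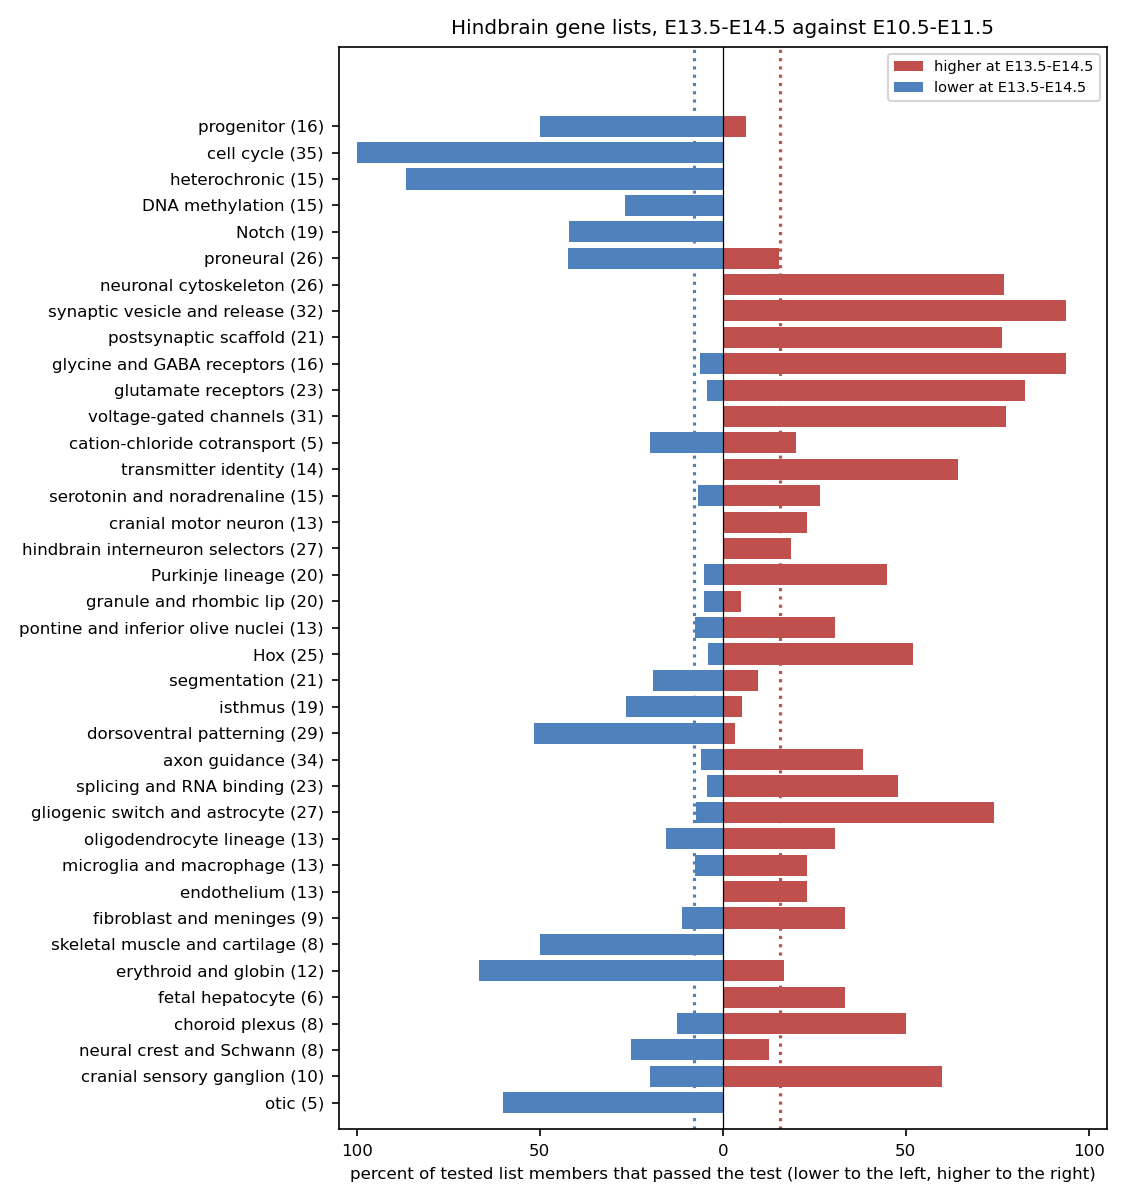
Percentage of the tested members of each gene list that fell (bars to the left) or rose (bars to the right) in the hindbrain at E13.5 and E14.5 against E10.5 and E11.5; the dotted lines mark the percentages over all 14194 protein-coding genes, 7.75% lower and 15.7% higher. All 35 cell cycle genes lie on the left, and 30 of 32 synaptic vesicle genes lie on the right.

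All 35 genes of the cell cycle list fell, against 7.75% of all protein-coding genes, with a median log2 fold change of -2.37 and a range from -2.83 to -1.5. Their summed level was 967 to 1113 TPM in the later window and 4377 to 5673 in the earlier. Top2a, the topoisomerase that untangles replicated chromosomes, had 73.1 and 59.9 TPM at E13.5 and 62.1 and 58.5 at E14.5, against 331 and 349 at E10.5 and 405 and 418 at E11.5 (log2 fold change -2.55 ± 0.07 SE, adjusted p = 2.11e-24). Mki67, which coats mitotic chromosomes, had 31.5 and 27.5 TPM at E13.5 and 25.8 and 24.1 at E14.5, against 169 and 192 at E10.5 and 136 and 146 at E11.5 (log2 fold change -2.52 ± 0.10 SE, adjusted p = 8.06e-21). The later libraries of both genes lay far below every earlier one. Birc5, a subunit of the chromosomal passenger complex, fell to 23.3 to 30.1 TPM in the later window, against 152 to 237 in the earlier (log2 fold change -2.83 ± 0.06 SE, adjusted p = 5.09e-27). Genes of the replication machinery stood at both ends of the range. Mcm7, a subunit of the replicative helicase, had 79.8 to 83.9 TPM in the later window and 222 to 245 in the earlier. Pcna, the sliding clamp, had 131 to 143 TPM in the later window and 385 to 419 in the earlier. Their decreases were among the smallest, while that of Mcm3, of the same helicase as Mcm7, was among the largest. The G1 cyclins Ccnd1 and Ccnd2 fell by 2.11 and 2.31 on the log2 scale.

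Since these genes fell together, the 250 bases upstream of their starts were searched for the words of cell cycle promoters. RefSeq promoters (GRCm38.p6) were matched for 27 of the 35 genes. The CCAAT word, on either strand, stood in 21 of the 27 promoters (77.8%), against 36.0% of 16317 protein-coding promoters. A CHR word (TTTGAA or TTCGAA, either strand) stood in 10 of 27 (37.0%), against 2525 of the 16317. An E2F word (TTTCCCGC, TTTCGCGC, TTTGCCGC or TTTGGCGC, either strand) stood in 5 of 27 (18.5%), against 2.43%. The words of the CHR and E2F sets can overlap other matches, and a match describes letters only; it is neither a binding site nor a cause. The 6 promoters below are shown because they hold these words and were chosen for that. Each line gives the 150 bases before the gene's start, 5′ to 3′ on the gene's strand, with CCAAT, CHR and E2F words in capitals.
Top2a: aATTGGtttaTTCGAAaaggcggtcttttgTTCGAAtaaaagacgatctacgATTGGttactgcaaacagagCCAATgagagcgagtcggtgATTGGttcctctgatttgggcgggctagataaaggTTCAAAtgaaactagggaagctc
Ube2c: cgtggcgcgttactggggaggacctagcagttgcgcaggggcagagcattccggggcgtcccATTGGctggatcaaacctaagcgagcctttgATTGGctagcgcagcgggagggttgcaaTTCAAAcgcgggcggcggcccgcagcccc
Ccnb2: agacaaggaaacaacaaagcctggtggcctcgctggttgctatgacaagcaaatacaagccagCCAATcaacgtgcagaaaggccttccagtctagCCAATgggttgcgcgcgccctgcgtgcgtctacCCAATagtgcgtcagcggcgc
Cdk1: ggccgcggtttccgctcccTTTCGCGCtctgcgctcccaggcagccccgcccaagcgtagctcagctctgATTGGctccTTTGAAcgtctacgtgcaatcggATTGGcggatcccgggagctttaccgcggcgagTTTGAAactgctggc
Cdc20: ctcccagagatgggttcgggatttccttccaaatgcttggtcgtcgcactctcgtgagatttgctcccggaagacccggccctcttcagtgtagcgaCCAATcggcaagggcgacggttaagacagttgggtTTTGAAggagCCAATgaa
Mcm6: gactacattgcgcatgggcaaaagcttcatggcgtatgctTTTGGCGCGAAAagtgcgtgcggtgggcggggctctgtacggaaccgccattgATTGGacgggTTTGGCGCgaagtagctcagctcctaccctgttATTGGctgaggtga
They lie at chr11:99024190-99024339 (minus strand), chr2:164769779-164769928 (plus strand), chr9:70421555-70421704 (minus), chr10:69352913-69353062 (minus), chr4:118437344-118437493 (minus) and chr1:128359706-128359855 (minus). In these 150 bases Top2a held 4 CCAAT and 3 CHR words, and Ccnb2, a mitotic cyclin, held 3 CCAAT words and no CHR word. Cdk1, the mitotic kinase, held 2 CCAAT, 2 CHR and 1 E2F word. Mcm6, of the replicative helicase, held 2 CCAAT and 3 E2F words. The genes fell by 2.75 (Ube2c, the mitotic ubiquitin-conjugating enzyme), 2.38 (Ccnb2), 1.95 (Cdk1), 2.29 (Cdc20, an activator of the anaphase-promoting complex) and 1.66 (Mcm6) on the log2 scale.

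Of 16 progenitor genes, 8 fell and 1 rose (median log2 fold change -0.96). Sox3, a SoxB1 factor of the neuroepithelium, had 3.92 and 5.71 TPM at E13.5 and 4.46 and 3.81 at E14.5, against 22.2 and 37.3 at E10.5 and 14.9 and 14.97 at E11.5 (log2 fold change -2.01 ± 0.10 SE, adjusted p = 1.47e-17). Nes, an intermediate filament of neural progenitors, had 81.7 and 70.7 TPM at E13.5 and 60.2 and 56.5 at E14.5, against 221 and 238 at E10.5 and 271 and 287 at E11.5 (log2 fold change -1.91 ± 0.08 SE, adjusted p = 2.66e-20). Neither gene overlapped between the windows. Hmgb2, a chromatin protein of dividing cells, had the largest decrease of the list (-2.48). Sox2, another SoxB1 factor, did not reach the fold threshold, with 40.1 to 60.5 TPM in the later window and 70.1 to 85.1 in the earlier (log2 fold change -0.62 ± 0.10 SE, adjusted p = 7.45e-07). Vim, a filament of radial glia, likewise did not, with 625 to 827 TPM in the later window and 964 to 1547 in the earlier (-0.72); at E14.5 against E11.5 alone it fell by 1.18. The 1 member that rose was Fabp7, the lipid-binding protein of radial glia, with 1814 and 1988 TPM at E13.5 and 2160.1 and 2035 at E14.5, against 460.3 and 359 at E10.5 and 1224 and 1127 at E11.5 (log2 fold change 1.53 ± 0.13 SE, adjusted p = 2.49e-12). Its E10.5 libraries lay lowest, and the E14.5 over E11.5 change alone was 0.84, which is not a call.

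Genes that set early embryonic timing fell almost as a block. Of 15 such genes 13 fell and none rose (median -1.94), against 7.75% of all genes that fell. At E14.5 against E11.5 alone 11 fell and none rose (median -1.57). The windows did not overlap for any of the 15, against no overlap for 60.9% of all genes. Igf2bp1, an RNA-binding protein of fetal growth, had 11.47 and 8.73 TPM at E13.5 and 6.45 and 7.81 at E14.5, against 54.4 and 88.3 at E10.5 and 49.1 and 50.3 at E11.5 (log2 fold change -2.66 ± 0.15 SE, adjusted p = 7.02e-17). Hmga1, the relative of Hmga2, had 127 and 124 TPM at E13.5 and 88.2 and 97.3 at E14.5, against 802 and 1126 at E10.5 and 319 and 352 at E11.5 (log2 fold change -2.38 ± 0.10 SE, adjusted p = 4.5e-20). Both were highest in the second E10.5 library. Prtg, an adhesion protein of the early neural tube, fell to 0.87 to 0.92 TPM in the later window, against 4.16 to 20.6 in the earlier. Trim71, a let-7 target, fell to 0.23 to 0.40 TPM in the later window, against 2.77 to 8.91 in the earlier. The imprinted growth factor Igf2 had 337 to 484 TPM in the later window and 541 to 747 in the earlier and did not reach the threshold (-0.61).

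Of 15 genes of DNA methylation 4 fell and none rose (median -0.42). Uhrf1, which brings the maintenance methyltransferase to replicating DNA, had 27.4 and 21.6 TPM at E13.5 and 22.4 and 24.9 at E14.5, against 161 and 208 at E10.5 and 155 and 160.4 at E11.5 (log2 fold change -2.77 ± 0.10 SE, adjusted p = 1.03e-21). Hells, a remodeller that acts with it, had 14.3 and 13.1 TPM at E13.5 and 15.1 and 15.1 at E14.5, against 82.5 and 98.7 at E10.5 and 68.2 and 75.7 at E11.5 (log2 fold change -2.41 ± 0.11 SE, adjusted p = 7.86e-19). Both were lower in every later library. Dnmt3b, a de novo methyltransferase, fell to 3.18 to 3.56 TPM in the later window, against 8.53 to 16.1 in the earlier (log2 fold change -1.54 ± 0.09 SE, adjusted p = 5.69e-16), while Dnmt3a, the other one, had 57.8 to 77.3 TPM in the later window and 91.8 to 103 in the earlier (-0.51). The fourth gene that fell was Mbd4, a glycosylase that repairs deaminated methylcytosine (-1.12). Dnmt1, the maintenance enzyme, had 63.6 to 69.6 TPM in the later window and 98.1 to 148 in the earlier (-0.81). The demethylase Tet1 had 13.4 to 15.9 TPM in the later window and 8.11 to 10.98 in the earlier (0.60); none of Dnmt3a, Dnmt1 and Tet1 passed the threshold.

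In the Notch pathway 8 of 19 genes fell and none rose (median -0.80). Among ligands, Dll1 had 23.1 and 25.6 TPM at E13.5 and 20.2 and 18.6 at E14.5, against 47.4 and 52.3 at E10.5 and 74.7 and 76.9 at E11.5 (log2 fold change -1.46 ± 0.08 SE, adjusted p = 7.22e-17), and Dll3, an inhibitory ligand, fell by 1.57. Jag2, a ligand of the other family, had 14.3 to 16.4 TPM in the later window and 6.83 to 9.46 in the earlier (0.87) and was not called. Among targets, Hes5 had 29.8 and 34.1 TPM at E13.5 and 24.4 and 23.2 at E14.5, against 79.0 and 113 at E10.5 and 88.6 and 91.7 at E11.5 (log2 fold change -1.71 ± 0.10 SE, adjusted p = 7.5e-16) and Nrarp, a feedback inhibitor, had 27.4 and 31.6 TPM at E13.5 and 21.8 and 22.7 at E14.5, against 90.7 and 99.2 at E10.5 and 79.5 and 84.3 at E11.5 (log2 fold change -1.74 ± 0.06 SE, adjusted p = 1.35e-21). For Dll1, Hes5 and Nrarp every later library lay below every earlier one. The glycosyltransferase Mfng, which modifies Notch receptors, fell by 1.37.

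Proneural factors moved in both directions: of 26 genes of neuronal commitment 11 fell and 4 rose (median -0.81). Neurog1 had 3.67 and 3.78 TPM at E13.5 and 2.02 and 1.5 at E14.5, against 39.9 and 43.6 at E10.5 and 26.6 and 29.3 at E11.5 (log2 fold change -3.29 ± 0.08 SE, adjusted p = 1.1e-25). Neurog2, its close relative, had 9.18 and 12.8 TPM at E13.5 and 9.22 and 7.25 at E14.5, against 25.8 and 17.4 at E10.5 and 39.5 and 41.1 at E11.5 (log2 fold change -1.54 ± 0.13 SE, adjusted p = 6.11e-12). Both release progenitors as neurons, but Neurog2 was higher at E11.5 than at E10.5 while Neurog1 was lower. Neurod4, which acts downstream of them, had 1.23 to 2.46 TPM in the later window and 15.3 to 22.8 in the earlier (-2.70). Ptf1a, which specifies inhibitory neurons of the cerebellum and dorsal hindbrain, had 0.51 to 1.62 TPM in the later window and 1.57 to 6.41 in the earlier (-1.37). Insm1, transient in newborn neurons, had 12.9 to 15.6 TPM in the later window and 28.9 to 35.3 in the earlier (-1.15). The members that rose act later in the cascade: Neurod2 had 27.6 and 37.5 TPM at E13.5 and 18.9 and 18.2 at E14.5, against 0.22 and 0.19 at E10.5 and 0.46 and 0.69 at E11.5 (log2 fold change 4.21 ± 0.11 SE, adjusted p = 4.26e-25), Myt1l, which represses non-neuronal genes, had 60.0 to 73.1 TPM in the later window and 1.14 to 8.18 in the earlier (3.84), and Ebf3 had 161 to 201 TPM in the later window and 50.8 to 82.8 in the earlier (1.40). Sox4, expressed in young neurons, had 172 to 238 TPM in the later window and 91.2 to 153 in the earlier and was not called (0.74).

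Most genes of neuronal structure rose. Of 26 genes of the neuronal cytoskeleton 20 rose and none fell (median 1.57); at E14.5 against E11.5 alone 12 rose and none fell (median 0.95). Mapt, the microtubule-associated protein tau, had 562 and 578 TPM at E13.5 and 665 and 644 at E14.5, against 36.4 and 24.8 at E10.5 and 97.0 and 98.4 at E11.5 (log2 fold change 3.47 ± 0.10 SE, adjusted p = 1.19e-24). Stmn4, a neuronal stathmin, had 426 and 413 TPM at E13.5 and 608 and 584 at E14.5, against 55.2 and 45.5 at E10.5 and 137 and 126 at E11.5 (log2 fold change 2.60 ± 0.08 SE, adjusted p = 4.58e-23). Tubb2a, a beta-tubulin of neurons, had 1475 and 1497 TPM at E13.5 and 1510.1 and 1671 at E14.5, against 174 and 140.4 at E10.5 and 414 and 350.0 at E11.5 (log2 fold change 2.65 ± 0.08 SE, adjusted p = 2.49e-23). In each the E11.5 libraries lay above the E10.5 libraries and below every later one. Nefh, the heavy neurofilament of mature axons, stayed low at 5.74 to 9.57 TPM in the later window and 0.52 to 1.54 in the earlier but rose (2.18), while Nefl, the light one, had 349 to 404 TPM in the later window and 109 to 278 in the earlier and was not called (0.95; 1.08 and called without the first E10.5 library). Tuba1a was the most abundant member, at 13644 to 18047 TPM in the later window and 8046 to 11333 in the earlier, and was not called (0.75).

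Genes of the synaptic vesicle and its release rose most uniformly: 30 of 32 rose and none fell (median 2.33), and 28 rose at E14.5 against E11.5 alone. Syt4, a synaptotagmin of vesicles, had 138 and 145 TPM at E13.5 and 195 and 182 at E14.5, against 6.48 and 3.58 at E10.5 and 34.3 and 29.2 at E11.5 (log2 fold change 3.57 ± 0.12 SE, adjusted p = 1.59e-22). Snap25, a SNARE protein of release, had 137 and 134 TPM at E13.5 and 165 and 155 at E14.5, against 33.0 and 24.9 at E10.5 and 56.0 and 51.8 at E11.5 (log2 fold change 1.88 ± 0.07 SE, adjusted p = 8.88e-22). Sv2a, a vesicle glycoprotein, had 97.5 and 94.5 TPM at E13.5 and 102 and 102 at E14.5, against 5.24 and 3.45 at E10.5 and 21.5 and 20.5 at E11.5 (log2 fold change 3.22 ± 0.08 SE, adjusted p = 2.55e-25). Every later library lay above every earlier one for all 3 genes. The members not called, Syt11 and Sypl, are also expressed outside neurons and had 148 to 160.1 TPM in the later window and 86.3 to 123 in the earlier, and 27.9 to 32.8 TPM in the later window and 21.2 to 32.5 in the earlier. Of 21 postsynaptic genes 16 rose and none fell (median 1.65). Dlg2, a scaffold of the postsynaptic density, had 28.7 and 27.9 TPM at E13.5 and 40.1 and 44.3 at E14.5, against 0.55 and 0.46 at E10.5 and 2.39 and 2.55 at E11.5 (log2 fold change 3.96 ± 0.08 SE, adjusted p = 4.29e-27).

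Among inhibitory receptors 15 of the 16 tested genes rose and 1 fell (median 2.28); 3 further members were too low to test. Glra2, the fetal alpha subunit of the glycine receptor, had 32.9 and 32.3 TPM at E13.5 and 45.2 and 41.2 at E14.5, against 0.36 and 0.18 at E10.5 and 2.54 and 2.34 at E11.5 (log2 fold change 4.21 ± 0.06 SE, adjusted p = 3.35e-31). The 1 member that fell was Glra1, the alpha subunit of the adult receptor, with 4.32 and 4.26 TPM at E13.5 and 3.42 and 3.85 at E14.5, against 13.8 and 10.6 at E10.5 and 13.3 and 15.7 at E11.5 (log2 fold change -1.52 ± 0.08 SE, adjusted p = 7.35e-17). The 2 subunits thus moved in opposite directions, and neither overlapped between windows. Gabra5 and Gabra3, alpha subunits of the GABA-A receptor, rose by 3.70 and 3.29.

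Among glutamate receptors 19 of 23 tested genes rose and 1 fell (median 2.15). Grin1, the obligatory NMDA receptor subunit, had 24.8 and 25.9 TPM at E13.5 and 31.3 and 34.6 at E14.5, against 1.03 and 0.61 at E10.5 and 1.99 and 1.83 at E11.5 (log2 fold change 3.70 ± 0.08 SE, adjusted p = 4.12e-27). Grin2b, its fetal partner, had 16.2 and 15.7 TPM at E13.5 and 17.8 and 17.1 at E14.5, against 0.17 and 0.20 at E10.5 and 1.05 and 0.92 at E11.5 (log2 fold change 3.53 ± 0.08 SE, adjusted p = 2.66e-26). Gria2, an AMPA receptor subunit, had 102 and 110.3 TPM at E13.5 and 163 and 149 at E14.5, against 7.39 and 3.56 at E10.5 and 43.4 and 38.4 at E11.5 (log2 fold change 3.01 ± 0.14 SE, adjusted p = 4.13e-19). All 3 were higher in every later library. Grm2, an inhibitory metabotropic receptor, fell over the windows, with 3.36 and 3.44 TPM at E13.5 and 3.18 and 2.88 at E14.5, against 14.3 and 13.4 at E10.5 and 6.05 and 7.45 at E11.5 (-1.35), but at E14.5 against E11.5 alone it was not called (-0.94).

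Of 31 voltage-gated channel genes 24 rose and none fell (median 1.58), and at E14.5 against E11.5 alone 20 rose. Scn3b, a sodium channel beta subunit, had 109 and 112 TPM at E13.5 and 146 and 143 at E14.5, against 6.52 and 4.56 at E10.5 and 26.5 and 26.2 at E11.5 (log2 fold change 3.26 ± 0.09 SE, adjusted p = 5.22e-25). Scn2a, an axonal sodium channel, had 24.4 to 35.5 TPM in the later window and 0.77 to 6.37 in the earlier (2.99), and the potassium channels Kcnd2 and Kcnc1 rose by 3.30 and 2.44. The cation-chloride cotransporter list had 1 of 5 tested genes higher and 1 lower (median -0.01). Of the cotransporters that set the chloride level of neurons, Slc12a5, the neuronal exporter KCC2, had 35.2 and 32.1 TPM at E13.5 and 41.2 and 39.1 at E14.5, against 4.03 and 4.64 at E10.5 and 11.7 and 10.4 at E11.5 (log2 fold change 2.24 ± 0.09 SE, adjusted p = 2.3e-20). Slc12a2, the importer NKCC1, had 16.8 and 16.01 TPM at E13.5 and 21.1 and 20.6 at E14.5, against 14.9 and 14.02 at E10.5 and 23.1 and 24.9 at E11.5 (log2 fold change -0.01 ± 0.07 SE, adjusted p = 0.915). The exporter thus separated the windows while the importer's E11.5 libraries lay highest. Slc12a7, another potassium-chloride cotransporter, fell by 1.47.

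**Figure D2:**
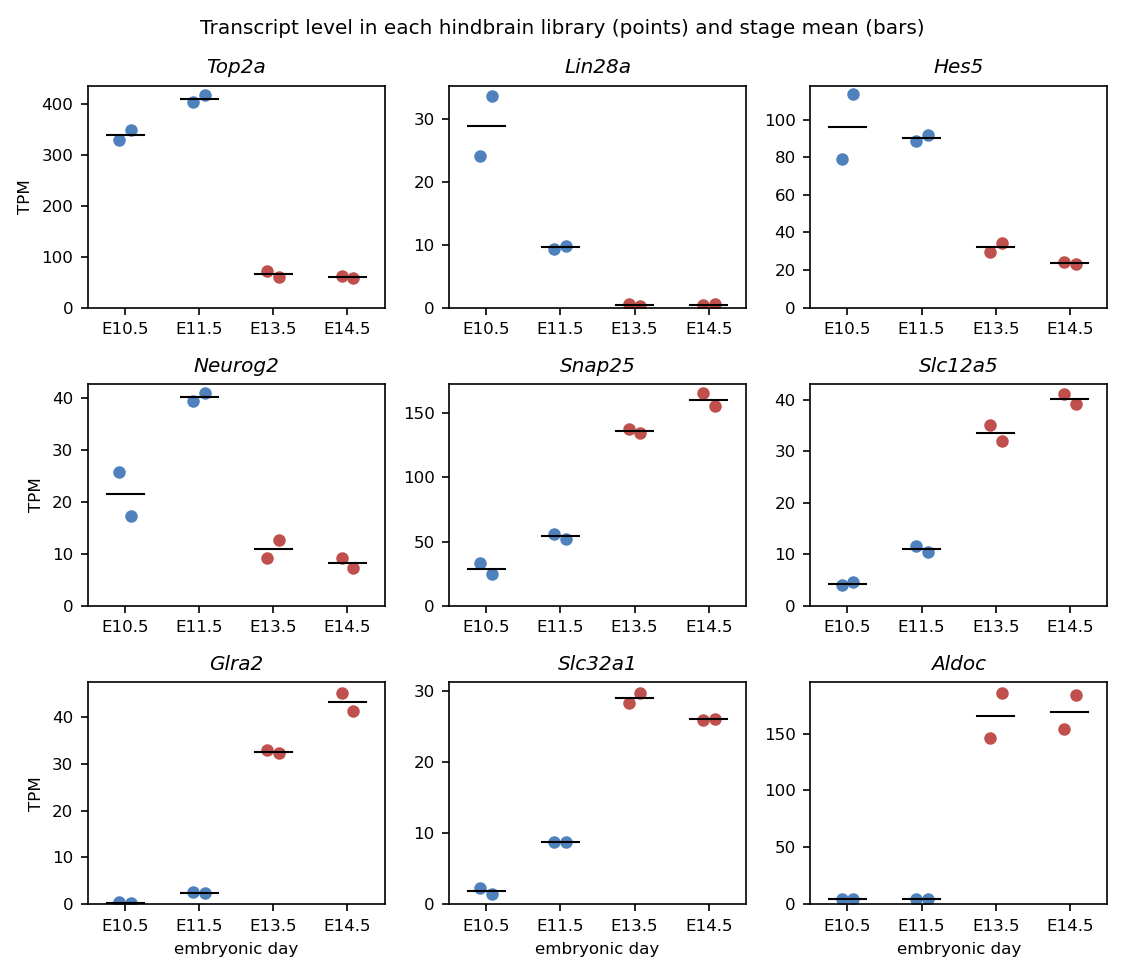
Transcript level (TPM, linear axis from 0) of 9 genes in the hindbrain by stage; each point is a library and each bar the stage mean. The progenitor and cell cycle genes Top2a, Lin28a, Hes5 and Neurog2 lie lower at E13.5 and E14.5, while Snap25, Slc12a5, Glra2, Slc32a1 and Aldoc lie higher, with no overlap between the windows in any of the 9.

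Of 14 genes that make or carry transmitters 9 rose and none fell (median 1.41), and at E14.5 against E11.5 alone 6 rose (median 0.70). Gad1, which makes GABA, had 68.2 and 72.2 TPM at E13.5 and 96.5 and 93.2 at E14.5, against 5.76 and 2.92 at E10.5 and 24.4 and 23.1 at E11.5 (log2 fold change 2.87 ± 0.12 SE, adjusted p = 3.72e-20). Slc32a1, the vesicular transporter of GABA and glycine, had 28.4 and 29.8 TPM at E13.5 and 26.0 and 26.1 at E14.5, against 2.20 and 1.47 at E10.5 and 8.77 and 8.71 at E11.5 (log2 fold change 2.45 ± 0.08 SE, adjusted p = 2.06e-22). Slc17a6, the vesicular glutamate transporter of the hindbrain, had 54.5 and 56.6 TPM at E13.5 and 74.3 and 67.5 at E14.5, against 8.40 and 4.64 at E10.5 and 30.8 and 28.3 at E11.5 (log2 fold change 2.10 ± 0.12 SE, adjusted p = 6.09e-17). In each, E10.5 was lowest, E11.5 lay between, and the later libraries were highest. Slc6a5, the neuronal glycine transporter, had 15.9 and 16.1 TPM at E13.5 and 14.9 and 15.9 at E14.5, against 1.91 and 0.65 at E10.5 and 10.6 and 10.52 at E11.5 (log2 fold change 1.73 ± 0.11 SE, adjusted p = 2.37e-15); at E14.5 against E11.5 alone its change was 0.51, which is not a call. Slc5a7, the choline transporter of motor neurons, had 5.73 to 7.92 TPM in the later window and 0.68 to 3.03 in the earlier (1.505).

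Among 15 genes of serotonin and noradrenaline neurons 4 rose and 1 fell (median 0.35). Slc6a4, the serotonin transporter, had 12.2 and 7.02 TPM at E13.5 and 13.7 and 10.96 at E14.5, against 0.64 and 0.39 at E10.5 and 1.93 and 1.36 at E11.5 (log2 fold change 2.55 ± 0.16 SE, adjusted p = 4.4e-15). Tph2, which makes serotonin in neurons, had 5.84 and 2.39 TPM at E13.5 and 7.04 and 5.20 at E14.5, against 0.16 and 0.08 at E10.5 and 0.80 and 0.76 at E11.5 (log2 fold change 2.05 ± 0.14 SE, adjusted p = 2.49e-14). Both were lowest in the second of the E13.5 libraries and still above all earlier ones. Lmx1b, needed for serotonin neurons, had 20.6 to 28.6 TPM in the later window and 16.48 to 22.5 in the earlier and was not called (0.34). The other genes that rose were the noradrenaline transporter Slc6a2 (1.30) and Fev (1.36), a transcription factor of serotonin neurons. At E14.5 against E11.5 alone 2 genes of the list were higher and 2 lower, and Slc6a2 (0.91) and Fev (0.82) were not called. Of 13 tested motor neuron genes 3 rose and none fell (median -0.16), near the 23.5% called of all genes. Among those that rose was Prph, also a filament of peripheral neurons. At E14.5 against E11.5 alone 3 genes of this list were higher and 2 lower. Isl1, a factor of motor and sensory neurons, had 25.1 to 38.4 TPM in the later window and 32.0 to 55.0 in the earlier (-0.44).

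Of 27 tested selector genes of hindbrain interneurons 5 rose and none fell (median 0.53), a share near the 15.7% of all genes; at E14.5 against E11.5 alone 1 rose and 2 fell (median 0.04). Prrxl1, of somatosensory relay neurons, had 17.7 and 18.6 TPM at E13.5 and 16.9 and 25.2 at E14.5, against 5.91 and 4.82 at E10.5 and 8.01 and 8.08 at E11.5 (log2 fold change 1.43 ± 0.10 SE, adjusted p = 8.57e-14). Lbx1, of dorsal association neurons, had 13.4 to 27.1 TPM in the later window and 2.50 to 12.3 in the earlier (1.31), and its E14.5 over E11.5 change was 0.29. Lhx1 had 42.6 to 63.0 TPM in the later window and 13.01 to 51.4 in the earlier and Lhx5 had 23.7 to 43.2 TPM in the later window and 11.2 to 33.0 in the earlier, with log2 fold changes of 0.89 and 0.68 that were not called; without the first E10.5 library Lhx1 was called (1.01).

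In the Purkinje cell lineage 9 of 20 tested genes rose and 1 fell (median 0.93). Pcp4, a calmodulin regulator of Purkinje and other neurons, had 170.2 and 187 TPM at E13.5 and 189 and 196 at E14.5, against 12.54 and 4.21 at E10.5 and 58.7 and 45.3 at E11.5 (log2 fold change 3.15 ± 0.17 SE, adjusted p = 2.52e-17). Skor2, needed for Purkinje cell differentiation, had 8.20 and 12.7 TPM at E13.5 and 4.87 and 6.14 at E14.5, against 1.06 and 0.39 at E10.5 and 2.05 and 2.42 at E11.5 (log2 fold change 1.87 ± 0.13 SE, adjusted p = 2.68e-14). Calb1, calbindin, had 5.12 to 6.94 TPM in the later window and 0.34 to 1.19 in the earlier (2.07). Foxp4 was the 1 member that fell, with 20.8 to 29.7 TPM in the later window and 50.3 to 125 in the earlier (-1.54). In the rhombic lip and granule cell list 1 gene of 20 rose and 1 fell (median 0.09), shares below the 15.7% and 7.75% of all genes. The gene that rose was Reln, the secreted guide of neuronal layering, with 62.9 and 58.0 TPM at E13.5 and 62.5 and 72.3 at E14.5, against 5.47 and 5.78 at E10.5 and 14.4 and 13.4 at E11.5 (log2 fold change 2.70 ± 0.08 SE, adjusted p = 1.17e-23), and the gene that fell was Wnt1, of the dorsal midline and isthmus (-1.33). Atoh1, which specifies the rhombic lip, had 8.12 to 12.3 TPM in the later window and 16.2 to 21 in the earlier and was not called (-0.82). Without the second E10.5 library 2 genes of this list were higher and 2 lower, and without the second E14.5 library 2 were lower.

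Of 13 genes of the pontine and inferior olivary nuclei 4 rose and 1 fell (median 0.44). At E14.5 against E11.5 alone 3 rose and 1 fell (median 0.22). Nfib, a nuclear factor I protein of pontine neurons and glia, had 47.6 and 54.5 TPM at E13.5 and 49.0 and 50.9 at E14.5, against 4.20 and 3.46 at E10.5 and 11.3 and 11.7 at E11.5 (log2 fold change 2.73 ± 0.09 SE, adjusted p = 1.7e-22). Robo3, which lets axons cross the midline, had 87.5 and 92.5 TPM at E13.5 and 33.8 and 32.4 at E14.5, against 129.6 and 61.5 at E10.5 and 167 and 185 at E11.5 (log2 fold change -1.18 ± 0.20 SE, adjusted p = 5.08e-06). Its E13.5 libraries lay between those of E10.5, so the windows overlapped, and only E14.5 lay below every earlier library. Without the first E10.5 library its change was -0.92, which is not a call.

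Position genes of the hindbrain did not move together. The Hox list held 39 genes, of which 14 were too low to test; of the 25 tested, 13 rose and 1 fell (median 1.13). The genes that rose belong to paralogue groups 3 to 9, and the members of highest fold change to groups 5 to 8. Hoxb8 had 103 and 1e+02 TPM at E13.5 and 63.4 and 93.5 at E14.5, against 1.14 and 0.09 at E10.5 and 12.2 and 21.2 at E11.5 (log2 fold change 4.15 ± 0.16 SE, adjusted p = 4.27e-21). Hoxa5 had 104 and 118 TPM at E13.5 and 91.4 and 128 at E14.5, against 2.55 and 0.12 at E10.5 and 24.9 and 33.3 at E11.5 (log2 fold change 3.84 ± 0.19 SE, adjusted p = 2.91e-18). Both were near 0 at E10.5, in between at E11.5 and high later. Hoxb1, which marks a single rhombomere of the early hindbrain, was the 1 member that fell, with 0.24 and 0.19 TPM at E13.5 and 0.10 and 0.18 at E14.5, against 8.85 and 14.4 at E10.5 and 3.05 and 3.83 at E11.5 (log2 fold change -2.65 ± 0.08 SE, adjusted p = 5.08e-23). In a list of hindbrain markers, most of them Hox genes, 4 of 9 rose and none fell, and at E14.5 against E11.5 alone 2 rose. Hoxa2 and Hoxb2, of more anterior rhombomeres, were not called (-0.20 and -0.43).

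Several Hox genes stood lower in the second E10.5 library than in the first. Hoxb4, of the caudal hindbrain, had 1.89 TPM in it and 9.48 TPM in the first, and Hoxc4 had 0.97 and 10.8 TPM. Hoxb1 and Hoxb2 were instead higher in the second, with 14.4 and 40.9 TPM in it and 8.85 and 38.3 TPM in the first. Without the second E10.5 library 12 Hox genes rose and 1 fell. At E14.5 against E11.5 alone 7 rose and 1 fell (median 0.30): Hoxb8 rose by 2.19 and Hoxa5 by 1.87, while Hoxc4 (0.43), Hoxa4 (0.35) and Hoxb6 (0.89) were no longer called. Hoxb4 and Hoxd3, which were not called over the windows (0.99 and 0.90), took the opposite sign in that contrast (-0.25 and -0.26) and were called without the first E10.5 library (1.46 and 1.13). Hoxb4 was also called without the second E11.5 (1.07), the first E13.5 (1.07) or the first E14.5 library (1.10). The borders of the dissection were not given, and their part in these differences was not tested.

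**Figure D3:**
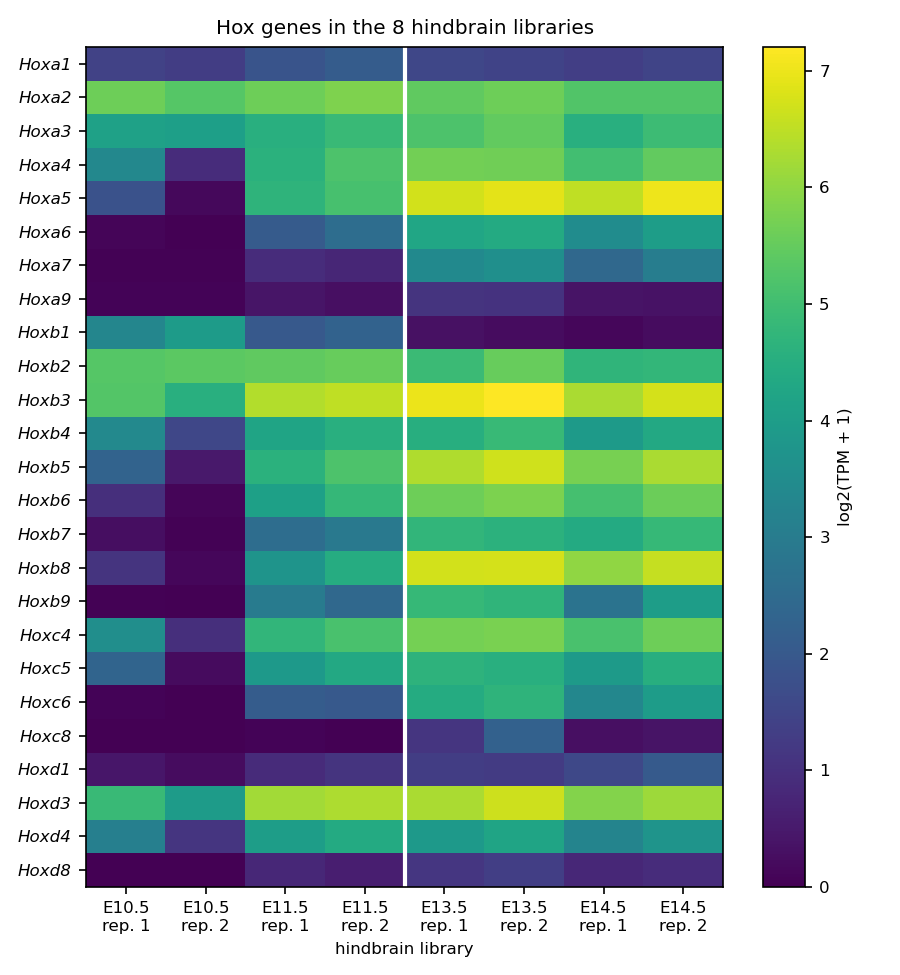
Heat map of log2(TPM + 1) for the 25 tested Hox genes (rows, by cluster and paralogue group) in the 8 hindbrain libraries (columns, later stages on the right). Bright colours are high values. Hoxb5 to Hoxb8 and Hoxa5 are bright at E13.5 and E14.5, intermediate at E11.5 and dark at E10.5, and darkest in the second E10.5 library; Hoxb1 runs the other way.

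Among 21 tested genes of segmentation and retinoic acid signalling 2 rose and 4 fell (median 0.11), and at E14.5 against E11.5 alone 1 rose and 5 fell. Cyp26c1, which degrades retinoic acid in rhombomeres, had 0.03 and 0.03 TPM at E13.5 and 0.03 and 0.01 at E14.5, against 13.2 and 14.8 at E10.5 and 4.91 and 5.79 at E11.5 (log2 fold change -3.25 ± 0.07 SE, adjusted p = 8.58e-27). Crabp1, a retinoic acid binding protein, had 295 and 281 TPM at E13.5 and 172 and 219.7 at E14.5, against 1672 and 1745 at E10.5 and 931 and 916 at E11.5 (log2 fold change -2.40 ± 0.13 SE, adjusted p = 3.82e-17). The later libraries lay below the earlier ones in both, and Cyp26c1 was close to 0 in all 4. Fgf3, of rhombomere boundaries, rose but stayed low, with 3.92 to 12.8 TPM in the later window and 0.45 to 1.15 in the earlier (2.18). The segmental transcription factor Egr2 had 1.88 to 3.61 TPM in the later window and 1.07 to 2.46 in the earlier and was not called.

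At the isthmus 5 of 19 genes fell and 1 rose (median -0.39). At E14.5 against E11.5 alone 4 fell and 1 rose (median -0.12). Fgf8, the organizer's signal, had 0.15 and 0.24 TPM at E13.5 and 0.29 and 0.13 at E14.5, against 3.16 and 12.4 at E10.5 and 1.76 and 2.34 at E11.5 (log2 fold change -1.99 ± 0.18 SE, adjusted p = 2.03e-11). Fgf17, of the same family, had 2.77 and 1.07 TPM at E13.5 and 1.75 and 0.71 at E14.5, against 5.70 and 22.9 at E10.5 and 5.22 and 5.05 at E11.5 (log2 fold change -1.84 ± 0.25 SE, adjusted p = 8.27e-08). Both were highest in the second E10.5 library, where En1, a target of the organizer, had 14.2 TPM against 5.13 TPM in the first. Gbx2, of the anterior hindbrain, had 22.3 to 43.7 TPM in the later window and 14.02 to 28.2 in the earlier and was not called (0.65). Without that library 3 genes of the list fell and 1 rose, without the second E14.5 library 4 fell and none rose, and the median of the list was -0.08 and -0.22 in the same order. Without the second E10.5 library the changes of Fgf8 and Fgf17 were -1.57 and -1.38.

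Genes of dorsoventral patterning fell more often than they rose: 15 of 29 tested genes fell and 1 rose (median -1.15). At E14.5 against E11.5 alone 12 fell and 1 rose (median -0.82). Dorsally, Msx2, a target of BMP signals from the roof plate, had 5.47 and 3.52 TPM at E13.5 and 2.02 and 2.56 at E14.5, against 33.3 and 28.8 at E10.5 and 26.5 and 29.1 at E11.5 (log2 fold change -2.85 ± 0.13 SE, adjusted p = 4.55e-19), and Pax3, of the alar plate, fell by 1.49. In the intermediate zone, Dbx1 had 5.36 and 5.99 TPM at E13.5 and 5.88 and 4.63 at E14.5, against 31.3 and 57.2 at E10.5 and 26.7 and 27.6 at E11.5 (log2 fold change -2.44 ± 0.14 SE, adjusted p = 1.22e-16). Both Msx2 and Dbx1 were lower in every later library. Among the transducers of Hedgehog signals, Gli3 fell by 2.23, Gli2 by 2.10 and the membrane protein Smo by 1.44, while Shh itself had 4.04 to 6.48 TPM in the later window and 8.03 to 12.97 in the earlier and was not called (-0.87). Olig2, of ventral progenitors and of oligodendrocyte precursors, was the member that rose, with 6.74 and 7.89 TPM at E13.5 and 11.1 and 9.73 at E14.5, against 0.92 and 1.75 at E10.5 and 1.39 and 1.26 at E11.5 (log2 fold change 2.07 ± 0.13 SE, adjusted p = 1.04e-15).

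Of 34 axon guidance genes 13 rose and 2 fell (median 0.52). Robo2, a Slit receptor, had 105.4 and 113 TPM at E13.5 and 103 and 117 at E14.5, against 14.3 and 13.6 at E10.5 and 26.5 and 25.2 at E11.5 (log2 fold change 2.46 ± 0.07 SE, adjusted p = 1.22e-23). The adhesion proteins Cntn1 and Ncam2 rose by 2.95 and 3.22, and Slit3, a ligand, fell by 1.18. Of 23 splicing and RNA-binding genes 11 rose and 1 fell (median 0.77). Ptbp1, which represses neuronal exons, had 110.2 and 99.8 TPM at E13.5 and 103 and 113 at E14.5, against 434 and 498 at E10.5 and 332 and 339.6 at E11.5 (log2 fold change -1.88 ± 0.07 SE, adjusted p = 5.71e-22), and Ptbp2, the form of young neurons, had 160.5 to 182 TPM in the later window and 136 to 204 in the earlier (0.00). At E14.5 against E11.5 alone 7 genes of the list were higher and 2 lower. Rbfox1, a splicing factor of maturing neurons, had 106 and 114 TPM at E13.5 and 112 and 117 at E14.5, against 8.57 and 4.25 at E10.5 and 22.9 and 21.6 at E11.5 (log2 fold change 3.14 ± 0.12 SE, adjusted p = 2.37e-21). The later libraries lay below the earlier ones for Ptbp1 and above them for Rbfox1. Rest, which silences neuronal genes outside neurons, had 6.64 to 7.56 TPM in the later window and 11.8 to 17.2 in the earlier and was not called (-0.95; -1.01 and called without the first E10.5 library).

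Most gliogenic and astrocyte genes rose. Of 27 tested genes of the gliogenic switch and of astrocytes 20 rose and 2 fell (median 1.59), against 15.7% and 7.75% of all genes. At E14.5 against E11.5 alone 16 rose and 2 fell. The windows did not overlap for any of the 27, against no overlap for 60.9% of all genes. Bcan, a proteoglycan of glia, had 21.1 and 25.3 TPM at E13.5 and 28.9 and 34.9 at E14.5, against 1.04 and 0.91 at E10.5 and 0.31 and 0.62 at E11.5 (log2 fold change 4.05 ± 0.14 SE, adjusted p = 4.01e-22). Nfix, a nuclear factor I protein, had 34.1 and 39.6 TPM at E13.5 and 33.6 and 38.8 at E14.5, against 1 and 0.35 at E10.5 and 4.72 and 5.03 at E11.5 (log2 fold change 3.59 ± 0.12 SE, adjusted p = 1.83e-22). Nfia, its relative that opens the glial program, had 20.5 to 29.1 TPM in the later window and 5.89 to 12.8 in the earlier (1.32), and 0.74 at E14.5 against E11.5 alone, which is not a call. Slc1a3, the glutamate transporter of radial glia, had 138 and 142 TPM at E13.5 and 145 and 149 at E14.5, against 15.2 and 15.3 at E10.5 and 30.8 and 29.3 at E11.5 (log2 fold change 2.68 ± 0.07 SE, adjusted p = 3.31e-25). For Bcan, Nfix, Nfia and Slc1a3 every later library lay above every earlier one. Sox9, which starts gliogenesis, fell, with 13.01 to 20.1 TPM in the later window and 32.0 to 39.1 in the earlier (-1.13), as did Id3 (-1.06), a target of BMP signals.

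Of 13 tested genes of the oligodendrocyte lineage 4 rose and 2 fell (median 0.66), and at E14.5 against E11.5 alone 5 were higher and none lower. Olig1 had 12.1 and 13.2 TPM at E13.5 and 22.5 and 19.4 at E14.5, against 0.38 and 0.45 at E10.5 and 0.74 and 0.68 at E11.5 (log2 fold change 3.47 ± 0.12 SE, adjusted p = 2.05e-22), and Cspg5, a proteoglycan of precursors and neurons, had 33.6 to 41.9 TPM in the later window and 4.29 to 7.82 in the earlier (2.53). Pdgfra, which marks the precursors but also mesenchyme, had 17.6 to 24.2 TPM in the later window and 23.03 to 39.7 in the earlier and was not called (-0.48). Sox10, of oligodendrocyte precursors, neural crest and otic epithelium, had 10.6 and 10.1 TPM at E13.5 and 9.92 and 12 at E14.5, against 42.6 and 38.2 at E10.5 and 13.8 and 16.54 at E11.5 (-1.15); the E10.5 libraries were the highest, and at E14.5 against E11.5 alone it was not called (-0.43).

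Markers of other cell types that the dissection could hold were counted as well. Their counts stand against 15.7% higher and 7.75% lower of all protein-coding genes, 23.5% together. The share called was near this for the endothelial and immediate early lists. The summed level of 12 erythroid genes was 8204 to 11116 TPM in the later window and 13101 to 16481 in the earlier, with 8 lower and 2 higher: the embryonic globin Hbb-bh1 fell by 6.84, and the adult globin Hbb-bs rose by 4.70. Globin genes share reads with near-identical copies, so single values are uncertain. The choroid plexus list summed to 1089 to 2239 TPM in the later window and 179 to 377 in the earlier, with 4 of 8 tested genes higher and 1 lower; Ttr, the thyroid hormone carrier of the plexus and of liver, gave most of the sum in every later library, with 1094 and 975 TPM at E13.5 and 2018 and 1978 at E14.5, against 161 and 35.3 at E10.5 and 267 and 271 at E11.5. The hepatocyte marker Alb had 0.01 to 5.55 TPM in the later window and 0 to 1.55 in the earlier, and Afp had 0.04 to 4.50 TPM in the later window and 0.01 to 4.50 in the earlier, so these liver genes were low in all 8 libraries while Ttr was high. Of the 6 tested genes of the hepatocyte list, which also holds Ttr, 2 were higher and none lower, and at E14.5 against E11.5 alone 1 was higher. Of 9 immediate early genes, which respond to handling, 1 was higher and 1 lower, and none of 5 sex-linked genes was called.

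Microglia and macrophage genes summed to 196 to 213 TPM in the later window and 106 to 156 in the earlier, with 3 of 13 higher and 1 lower. P2ry12, a receptor of microglia, had 6.07 to 7.59 TPM in the later window and 1.03 to 2.31 in the earlier (1.56). Without the second E10.5 library, and at E14.5 against E11.5 alone, 1 gene of this list was higher. Endothelial genes summed to 293 to 327 TPM in the later window and 273 to 365 in the earlier. Of these 13 genes 3 were higher and none lower, near the 23.5% called of all genes. Cldn5, of the blood-brain barrier, had 41.4 to 46.7 TPM in the later window and 15.54 to 19.2 in the earlier (1.32). Cdh5, which marks all endothelium, had 32.4 to 34.9 TPM in the later window and 29.4 to 37.0 in the earlier (0.08). Genes of meninges and fibroblasts summed to 590.3 to 756 TPM in the later window and 348 to 682 in the earlier, with 3 of 9 higher and 1 lower, and none lower at E14.5 against E11.5 alone. Sensory ganglion genes summed to 529.7 to 802 TPM in the later window and 217 to 340.5 in the earlier, with 6 of 10 higher and 2 lower; Prph, a filament of peripheral neurons, had 78.9 and 89.9 TPM at E13.5 and 91.9 and 185 at E14.5, against 8.80 and 5.07 at E10.5 and 17.1 and 17.0 at E11.5. Neural crest and Schwann cell genes summed to 186 to 239.6 TPM in the later window and 167 to 203 in the earlier, with 1 of 8 higher and 2 lower, none of them lower at E14.5 against E11.5 alone, and otic genes to 36.6 to 68.2 TPM in the later window and 79.0 to 137 in the earlier, with 3 of 5 lower.

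Skeletal muscle and cartilage genes summed to 73.3 to 211 TPM in the later window and 204 to 309 in the earlier, with 4 of 8 tested genes lower. The muscle actin Actc1 had 2.94 and 1.52 TPM at E13.5 and 4.55 and 60.1 at E14.5, against 10.2 and 14.2 at E10.5 and 26.7 and 36.4 at E11.5, so the second E14.5 library stood apart from the other later ones. Without it 6 genes of the list were lower, and the change of Actc1 was -2.29 in place of -1.43; without the first E14.5 library Actc1 was not called (-0.56), nor was it at E14.5 against E11.5 alone (-0.81). Forebrain markers summed to 4.50 to 14.6 TPM in the later window and 9.40 to 33.8 in the earlier with 3 of 7 lower, and midbrain markers to 76.7 to 116 TPM in the later window and 65.2 to 125 in the earlier with 1 of 6 lower. These counts did not hold at E14.5 against E11.5 alone, where 1 forebrain marker was higher and 1 lower, and 2 midbrain markers were higher and none lower. Without the second libraries of E10.5 and E14.5 together, 1 midbrain marker was higher and none lower. For these cell types their part in the results above was not tested. Without the second libraries of E10.5 and E14.5 together, 2160 genes were higher and 1082 lower.

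**Figure D4:**
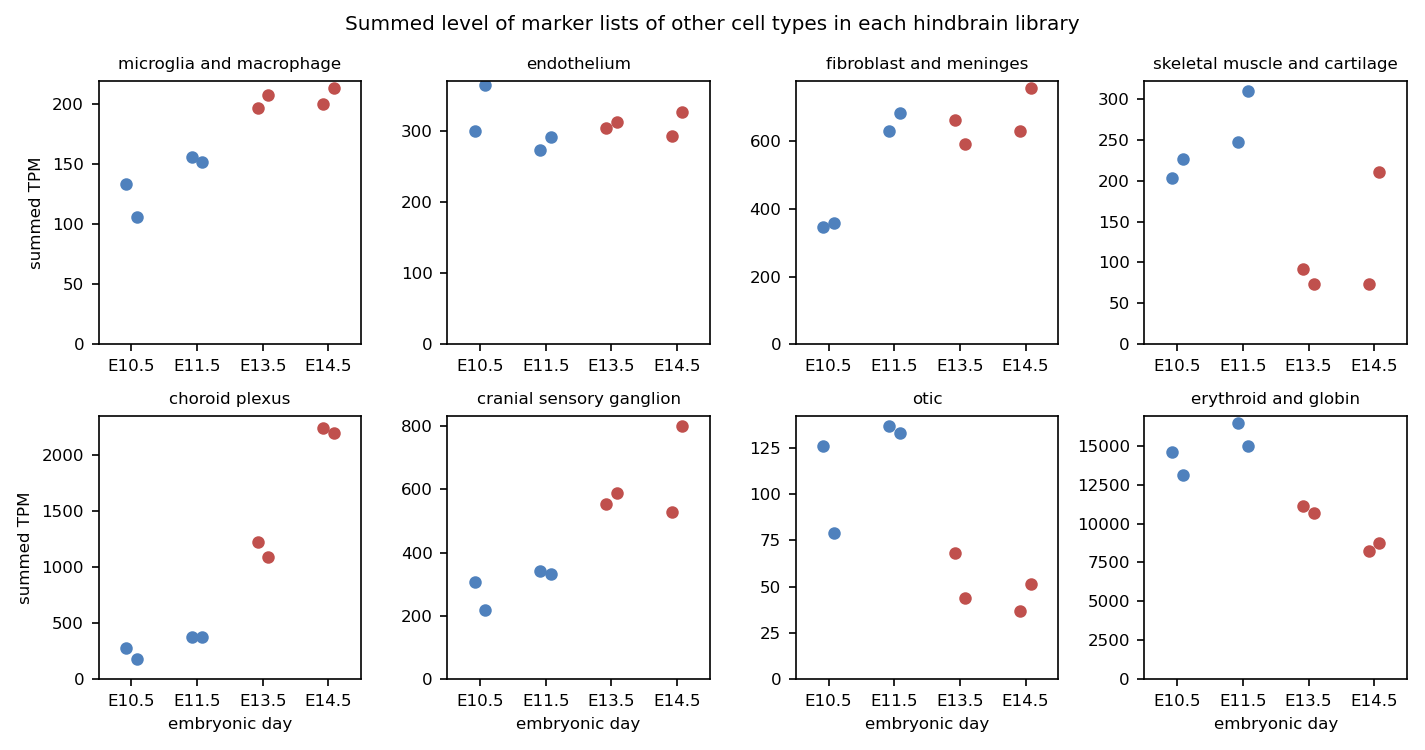
Summed TPM of 8 marker lists of other cell types in each hindbrain library (points), by stage. The choroid plexus sum lies between 1089 and 2239 TPM at E13.5 and E14.5 and at most at 377 TPM at E10.5 and E11.5; the muscle and cartilage sum of the second E14.5 library, 211 TPM, stands above the other later libraries.

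Within each window the stages also differed. Set against E10.5, E11.5 had 854 genes higher (6.02%) and 127 lower (0.895%), 6.91% together, and set against E13.5, E14.5 had 73 higher (0.514%) and 21 lower (0.148%), 0.662% together. These steps cannot be told apart from the stage feature described above. The median log2 change of E11.5 against E10.5 was 0.259 over all protein-coding genes; with median-of-ratios scaling it was -0.00204, the split was 367 higher and 344 lower, and 494 of the 981 calls were kept. On the deposited scale 15 of 25 Hox genes rose at E11.5, against 6.02% of all genes, and 12 of 26 cytoskeletal and 10 of 32 vesicle genes did. Hoxb6 had the highest fold change of the step (3.90 ± 0.18 SE, adjusted p = 1.43e-16), followed by Hoxa5 (3.90), mt-Co3 (3.65), Hoxb5 (3.496) and Hoxb8 (3.49). The lowest were Hist1h2ao (-3.91), Rps27 (-3.32), Wfikkn1 (-2.46), Hist1h2ap (-2.39) and Nanp (-2.35). Rps27, a ribosomal protein gene, had 640.1 and 588 TPM at E13.5 and 54.2 and 66.9 at E14.5, against 1044 and 841 at E10.5 and 74.3 and 116 at E11.5, an order of stages like that of Rpl30-ps9. Nanp was not called without the first E10.5 library (-1.96). Histone, ribosomal protein and mitochondrial genes share reads with near copies, so their values are uncertain.

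The step between E13.5 and E14.5 held few calls. With the spread taken from the 8 hindbrain libraries alone it held 67 calls in place of 94, and Actc1, Myl1 and Acta1 were not called. Its 5 highest genes were Tnnc2 (2.60), Actc1 (2.55), Myl1 (2.49), Hmga1b (2.37) and Acta1 (2.26), of which Tnnc2, Actc1, Myl1 and Acta1 are muscle genes. Within this window they were high in the second E14.5 library only; Tnnc2 had 18.6 TPM in it and 1.85 TPM in the first. Its 5 lowest were Rps27 (-3.33), mt-Nd3 (-1.98), Hba-x (-1.83), Hist1h2ap (-1.81) and Hbb-bh1 (-1.70). Without the second E14.5 library 48 genes were higher and 24 lower, and Tnnc2 (1.21), Actc1 (0.82), Myl1 (0.90) and Acta1 (0.81) were not called. Hist1h2ap was not called without any 1 of the 4 libraries of this step, with changes of -1.88 to -1.75, and Rps27 was not called without the first E14.5 library (-3.18). No cell cycle, vesicle or receptor gene of the lists was called in this step, near the 0.662% of all genes called. Of the lists with 2 or more calls, 5 muscle and cartilage, 2 choroid plexus and 2 midbrain marker genes were higher. In the other direction, 3 erythroid and 2 Hox genes were lower.

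The change of the hindbrain was set against the mean change of forebrain and midbrain over the same stages. The difference was called for 187 genes higher in hindbrain (1.32%) and 176 lower (1.24%), 2.56% of the genes tested. Against forebrain alone 428 genes were higher and 453 lower, and against midbrain alone 140 were higher and 126 lower. The forebrain at E10.5 had 1 library, so the comparison rests on 3 forebrain libraries in the earlier window. Of the 35 cell cycle genes 12 differed from the mean of forebrain and midbrain, all of them lower in the hindbrain change, against 1.24% of all genes. This count does not show how many differ from midbrain alone. Top2a had a log2 fold change of -2.55 in hindbrain, -0.48 in forebrain and -1.99 in midbrain (difference -1.31 ± 0.09 SE, adjusted p = 7.6e-13). Ccnd2, a G1 cyclin, had -2.31, 0.54 and -1.54 in the same order (difference -1.81 ± 0.12 SE, adjusted p = 5.16e-13). For both genes the hindbrain value was the lowest of the 3 tissues and the forebrain value the highest. The midbrain value lay nearer to that of hindbrain in both.

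Proneural genes showed the same kind of difference from the mean of forebrain and midbrain. Of 26 genes 14 were lower in the hindbrain change and none higher, against 1.24% of all genes. How many of them differ from midbrain alone was not counted. Neurog2 had a log2 fold change of -1.54 in hindbrain, 1.196 in forebrain and -0.51 in midbrain (difference -1.88 ± 0.17 SE, adjusted p = 2.55e-10). Insm1 had -1.15, 1.18 and 0.11 in the same order (difference -1.80 ± 0.09 SE, adjusted p = 5.82e-16). For Neurog2 and Insm1 the midbrain value lay between those of hindbrain and forebrain. Of the 32 vesicle genes 2 were higher and none lower, and Snap25 had a difference of -0.69, which was not called. Glra1 had a log2 fold change of -1.52 in hindbrain, 0.02 in forebrain and 0.40 in midbrain (difference -1.73 ± 0.10 SE, adjusted p = 6.51e-14).

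Hox genes gave 13 of the 187 higher differences and all of the 6 highest: Hoxb8 (4.13), Hoxa5 (3.84), Hoxb7 (3.22), Hoxb5 (3.08), Hoxc6 (3.06) and Hoxb6 (3.005). Hoxb8 had a log2 fold change of 0.04 in forebrain and -0.01 in midbrain, where it was not called. Olig1 (2.44 ± 0.15 SE, adjusted p = 5.26e-14), Olig2 (2.63) and Hopx (2.39), a homeodomain protein of glial progenitors, also rose more in hindbrain. The 6 lowest differences were those of Ttr (-3.51), Cyp26c1 (-3.08), Dlx1 (-2.95), Oc90 (-2.90), Dlx5 (-2.68) and Hoxb1 (-2.61). Ttr rose in hindbrain (3.32) and more so in forebrain (6.81) and midbrain (6.85).

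**Figure D5:**
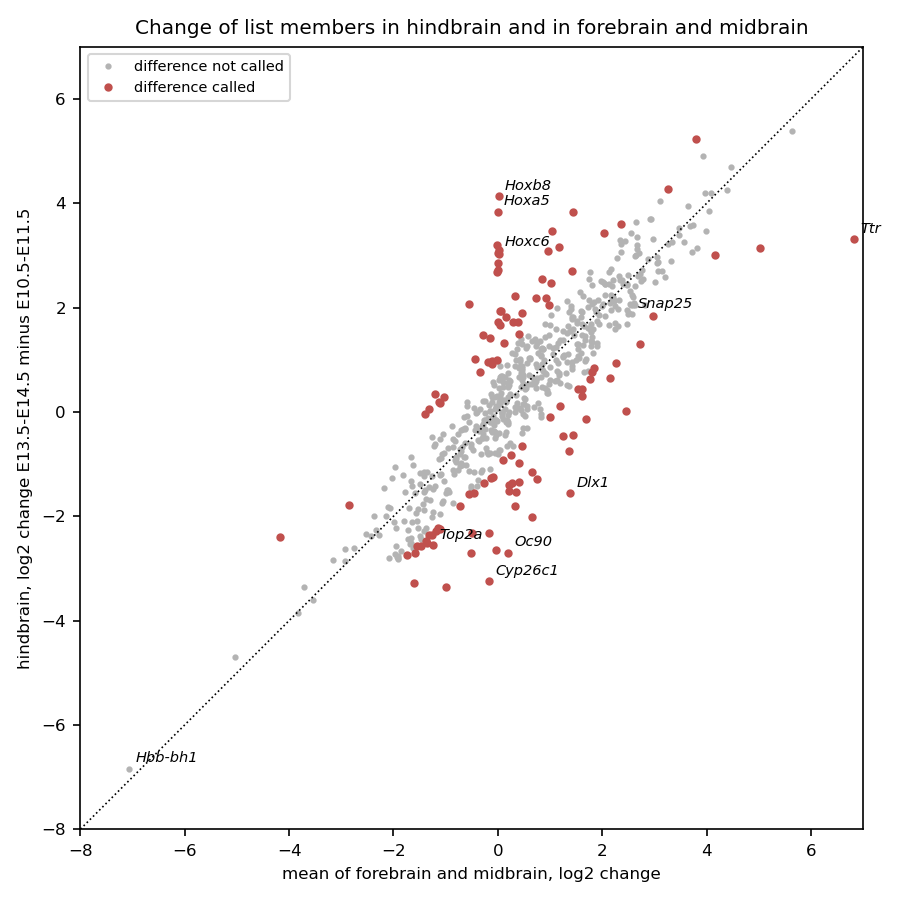
Log2 fold change from the earlier to the later window in hindbrain (vertical axis) against the mean of forebrain and midbrain (horizontal axis) for the 645 tested members of the lists; red points are the 111 genes whose difference was called. The 13 called Hox genes other than Hoxb1 lie above the diagonal, and the 14 called proneural and 12 called cell cycle genes lie below it.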

How the data were processed

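Per the labels' protocols, stranded mRNA libraries were built from 4 µg of total RNA, purified by a kit for lipid-rich tissue. The submitters' processing notes name STAR 2.4.0k, RSEM 1.2.23 and mm10, without a role. The authors deposited 1 table of TPM (transcript level as a share of the library, corrected for length) per gene and library. TPM keeps no depth, so no counting interval can be given. The annotation used upstream is not given in the sources used here. Symbols, biotypes and positions came from GENCODE M21 (GRCm38), which matched 42462 of 43346 identifiers.

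Values were analysed as log2(TPM + 1), a scale that understates the change of low genes. The tests covered the 16203 genes that reached 1 TPM in 2 or more of the 8 hindbrain libraries, 14194 of them protein-coding. One limma 3.58.1 fit in R 4.3.3 held a mean per tissue and stage over 57 libraries (26 residual degrees of freedom); 4 columns whose header and sample record name different stages were left out. P-values were adjusted by Benjamini-Hochberg over all genes of a contrast, and a call needed an adjusted p below 0.05 and a log2 fold change of 1 or more in size. The fit was tested on simulated data.

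The windows, the 43 gene lists and the tests were chosen with earlier results of these data known. Genes were named by rule. The rule took the 10 highest and 10 lowest called genes without overlap between the windows, and the largest changes of each list. It also took the 6 most different between tissues and the 5 largest of each step in each direction. Other list members were chosen after their values were seen, and some named by the rule are not reported here. Alternatives covered scaling, pseudocount, filter, leaving out libraries and other choices of stages.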

Additional observations from a re-analysis of the deposited data

Results flagged for a closer look

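Among 376 pairs of a named gene and a window of 4 libraries, 18 had 1 library whose gap to the nearest of the others was a larger part of the window's range than Dixon's critical value for 4 samples allows. Chance gives such a gap in about 1 of 20 groups of 4 samples drawn from 1 population. Each window here mixed 2 stages, and some genes were named for their change between stages. The 18 of 376 therefore cannot be judged by that rate, and chance was not excluded. Of the 18, 8 lay in the second E14.5 library and 5 in the second E10.5 library. In the second E14.5 library the muscle genes Actc1 (60.07 TPM), Acta1 (29.17 TPM), Myl1 (33.28 TPM) and Tnnc2 (18.57 TPM) and the peripheral neuron filament Prph (184.69 TPM) stood above the other later libraries, whose highest values were 4.55, 3.02, 2.79, 1.85 and 91.88 TPM in the same order. These 4 muscle genes were named as 4 of the 5 highest changes between E13.5 and E14.5, so their count in this library follows in part from the choice of genes. Nefl was also highest there (404.29 TPM), and Neurod4 (1.23 TPM) and Cyp26c1 (0.01 TPM) were lowest.

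In the second E10.5 library the isthmus signals Fgf8 (12.38 TPM) and Fgf17 (22.86 TPM) stood above the other earlier libraries, which reached 3.16 and 5.70 TPM. Dbx1 of the intermediate zone (57.22 TPM), Igf2bp1 (88.27 TPM) and Uhrf1 (208.04 TPM) were highest there too. In the first E11.5 library the hepatocyte genes Afp and Alb stood at 4.50 and 1.55 TPM, against at most 0.30 and 0.08 TPM in the other earlier libraries. Gabra5 was lowest in the first E10.5 library (0.35 TPM), Cdh5 was lowest in the first E14.5 library (32.42 TPM), and Nanp was highest in the first E13.5 library (6.01 TPM), where the other later libraries reached at most 0.18 TPM.

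The window change in the hindbrain differed from the mean change of forebrain and midbrain by the limma test of the difference itself for 12 genes named by rule. It was above that mean for Hoxb8 (4.13), Hoxa5 (3.84), Hoxb7 (3.22), Hoxb5 (3.08), Hoxc6 (3.06) and Hoxb6 (3.0), and below it for Ttr (-3.51), Cyp26c1 (-3.08), Dlx1 (-2.95), Oc90 (-2.90), Dlx5 (-2.68) and Hoxb1 (-2.61), all on the log2 scale. Dlx1 and Dlx5, transcription factors of forebrain interneurons, had window changes of -1.56 and -2.01 in the hindbrain, and 1.82 and 0.93 in the forebrain, of which that of Dlx5 was not called. In the hindbrain Dlx1 was not called at E14.5 against E11.5 alone (-0.86) or at E13.5 against E11.5 alone (-0.66). Oc90, an otoconial protein, had -2.70 in the hindbrain, 0.30 in forebrain and 0.09 in midbrain.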

How the results depend on the processing

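The number of genes higher in the later window was 2230; it was 1330 with a pseudocount of 5 TPM, 1437 for E13.5 against E11.5 alone and 3370 for E14.5 against E10.5 alone. The number lower was 1100, and 666 with a pseudocount of 5 TPM. For the 981 calls of E11.5 against E10.5, a pseudocount of 0.1 TPM gave 1677 and one of 5 TPM gave 395. For the 94 calls of E14.5 against E13.5 these pseudocounts gave 162 and 31, and for the 363 differences between hindbrain and the other 2 brain regions 718 and 134. Leaving out 1 hindbrain library at a time gave 2198 to 2269 genes higher, 1044 to 1167 lower, 770 to 1279 calls of E11.5 against E10.5, 72 to 120 of E14.5 against E13.5 and 352 to 396 differences. With quantile normalization the calls of E11.5 against E10.5 split into 391 higher and 313 lower, and those of E14.5 against E13.5 were 64.3% higher in place of 77.7%. The contrasts E14.5 against E11.5 and E13.5 against E10.5, and the fits without the second E10.5 and E14.5 libraries together, were added after the data were seen. Of 142 window changes of named genes, 20 lost their call with a pseudocount of 5 TPM, 15 for E13.5 against E11.5 and 13 for E14.5 against E11.5, with the same sign, and 8 uncalled genes were called for E14.5 against E10.5. The 21 differences between tissues kept their call in each alternative run. Signs turned as follows. For E13.5 against E10.5 alone, Robo3 had 0.01, Hoxa2 0.07 and Slc12a2 0.17. For E14.5 against E11.5 alone, Hoxb4 had -0.25, Hoxd3 -0.26, Gbx2 -0.07, Lhx1 -0.17, Lhx5 -0.31 and Ptbp2 -0.20. For E14.5 against E10.5 alone, Actc1 had 0.50, Slc12a2 0.50 and Cdh5 -0.03. Cdh5 had -0.02 with quantile normalization, and Ptbp2 had -0.04 with median-of-ratios scaling and -0.30 for E13.5 against E11.5 alone. Leaving out 1 library at a time gave -0.03 to 0.04 for Ptbp2 and -0.03 to 0.02 for Slc12a2. Of these genes Robo3 and Actc1 were called over the windows. The cause of these changes was not tested.

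The replicate numbers did not pair the libraries: same-numbered libraries of different stages had correlations of their deviations between -0.0646 and 0.12. With a replicate block there were 2230 genes higher, 1100 lower, 981 and 94 calls within the windows and 364 differences. Unknown depth limits what can be said of genes near 1 TPM, and 2 libraries a stage limit the precision of every stage mean.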
